A study of Homo sapiens with 4 samples.

Results

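The 10 genes VIM, FN1, TGFB1I1, S100A4, ACTA2, TAGLN, SPARC, POSTN, EMP1 and CSPG4, taken here as mesenchymal markers, were followed through a comparison of DNA methylation between mesenchymal and epithelial clones of the SKOV3 ovarian cancer cell line. A member region was any tile of 1000 bp in 3 deposited tables of differentially methylated tiles that overlapped the gene or the 5 kb on either side of it. This gave 17 distinct tiles of the 72455 in the tables, in the windows of 8 of the 10 genes. The tables list only tiles past the authors' thresholds, a difference of at least 25 percentage points and an adjusted p (q) under 0.01, so each tile was selected on the difference reported for it. The values below are therefore a description and carry no test of their own.

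The RRBS data came from 4 libraries, 1 of each stable SKOV3 clone, with no replicate. ShC-S received a control shRNA and kept the mesenchymal phenotype (SKOV3-M). ShLy75-S carried an shRNA that suppresses LY75, an endocytic antigen receptor, and showed the epithelial phenotype (SKOV3-E). Ly75-KO-S, also epithelial, had LY75 removed with CRISPR. Ly75-OV-S overexpressed LY75 on top of the LY75 shRNA and was mesenchymal. It therefore descends from knockdown cells, and its pairing with Ly75-KO-S sets a rescued shRNA clone against a knockout clone of separate origin. With 1 clone of each kind, the effect of LY75 cannot be told apart from differences between clones. The first table compares ShLy75-S with ShC-S, the second Ly75-KO-S with Ly75-OV-S, and the third, the mix, both SKOV3-E with both SKOV3-M libraries. The mix holds the same libraries as the other tables and is no further evidence.

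All differences are given as methylation in SKOV3-E minus methylation in SKOV3-M, in percentage points, and a positive value is called hypermethylated. The order of subtraction in the Ly75-KO-S table was inferred. It rests on its relation to the mix table and on the study's account of which clones the mix sets against each other. If the mix grouped the clones otherwise, the fit below would not fix the order. Over the 4250 tiles in all tables, the mix difference was best fitted by 0.534 times the ShLy75-S difference plus 0.435 times the Ly75-KO-S difference. The name of that table gives the opposite order, which would turn the sign of every value from it. The tables hold neither coverage nor the methylation of single libraries, so depth and error are unknown. A difference of a given size does bound the levels: the higher library lies at or above it, and the lower at or below 100 minus it.

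Mesenchymal cells carry a contractile and intermediate-filament cytoskeleton, deposit matrix and migrate singly, and carcinoma cells acquire parts of this program during epithelial-mesenchymal transition (EMT). Vimentin, smooth muscle actin and fibronectin are the textbook markers of the mesenchymal state. In general, dense methylation over a CpG-rich transcription start site (TSS) goes with a silent gene, whereas methylation within a transcribed gene has no such simple relation to its activity. No RNA was measured in these libraries, so the marker status of the genes could not be checked here. The study's introduction reports, from earlier work, that expression of FN1 and TWIST1 was lost on LY75 depletion in mesenchymal-like lines including SKOV3. EMP1 was classed by the study as an epithelial marker of these cells, against the name under which it is grouped here.

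The following stretches from the hg19 genome are shown because they hold CpGs that RRBS reads can cover in 3 of the listed tiles that the results turn on. RRBS cuts at MspI sites (CCGG) and reads inward, and the CpGs that reads of 50 bp from fragments of 40 to 220 bp can hold are in capitals. Each stretch is written 5′ to 3′ on the strand of its gene. The first lies 812 bp upstream of CSPG4, minus strand, chr15:76006001-76006200. The second is intron 1 of TGFB1I1, 165 bp past its TSS, plus strand, chr16:31483638-31483837. The third spans the end of intron 5 and part of exon 6 of VIM, plus strand, chr10:17276569-17276768.
CSPG4 upstream: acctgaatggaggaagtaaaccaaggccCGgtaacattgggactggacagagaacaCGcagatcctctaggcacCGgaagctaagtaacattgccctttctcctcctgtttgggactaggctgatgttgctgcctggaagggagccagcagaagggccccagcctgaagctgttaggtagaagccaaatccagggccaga
TGFB1I1 intron 1: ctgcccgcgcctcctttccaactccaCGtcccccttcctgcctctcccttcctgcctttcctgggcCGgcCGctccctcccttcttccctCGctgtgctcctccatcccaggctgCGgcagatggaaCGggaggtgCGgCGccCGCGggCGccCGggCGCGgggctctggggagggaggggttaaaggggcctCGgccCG
VIM exon 6: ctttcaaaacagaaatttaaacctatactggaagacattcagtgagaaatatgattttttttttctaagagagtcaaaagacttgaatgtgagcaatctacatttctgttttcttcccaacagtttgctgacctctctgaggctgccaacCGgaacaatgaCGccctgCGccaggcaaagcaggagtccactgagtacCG
The TGFB1I1 stretch is dense, with 18 CpGs in 200 bp of which 16 are in capitals. The VIM stretch has 4 CpGs and the CSPG4 stretch 3, all in capitals.

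Most member tiles were less methylated in SKOV3-E. The ShLy75-S table listed 11 tiles of 7 genes, 9 hypomethylated and 2 hypermethylated. The Ly75-KO-S table listed 8 tiles of 5 genes, 6 hypomethylated and 2 hypermethylated. The mix listed 2 tiles of 2 genes, both hypomethylated. The hypomethylated share was thus 81.8% and 75%, where among listed tiles in the windows of all protein-coding genes it was 38.1% and 44.7%, and 37.8% in the mix. The size of this share depended on the thresholds and on the width of the window. At differences of 50 points or more it was 60% (3 of 5 tiles) in the ShLy75-S table and 66.7% (2 of 3) in the Ly75-KO-S table. At a q under 1e-10 it was 80% and 50%. With 10 kb on either side, the ShLy75-S table held 19 tiles, of which 12 were hypomethylated and 7 hypermethylated, and the share came to 63.2%. The share over all protein-coding genes was not taken at these other settings. How far the members differ from other genes there is therefore unknown. With the opposite order of subtraction in the Ly75-KO-S table, 6 of its 8 tiles would be hypermethylated.

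The number of listed tiles was close to that of the genome at large. Of the 80 tiles in the member windows with a CpG within reach of MspI reads, 11 (13.8%) were listed in the ShLy75-S table, against 12.4% of such tiles in the genome. In the Ly75-KO-S table, 7 of the 80 (8.75%) were listed, against 6.65%, and in the mix 2 (2.5%), against 5.15%. By gene, 7 of 10 windows held a tile in the ShLy75-S table where 60.5% of protein-coding genes did. For the Ly75-KO-S table it was 5 of 10 against 46.9%, and for the mix 2 of 10 against 38.4%. A tile in any table was present for 8 of 10 genes, against 70.7% of protein-coding genes. The median length of the 10 genes was 24.5 kb and that of protein-coding genes 27.3 kb, so the windows were of similar size. These shares do not set the 10 genes apart from other genes.

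**Figure D1:**
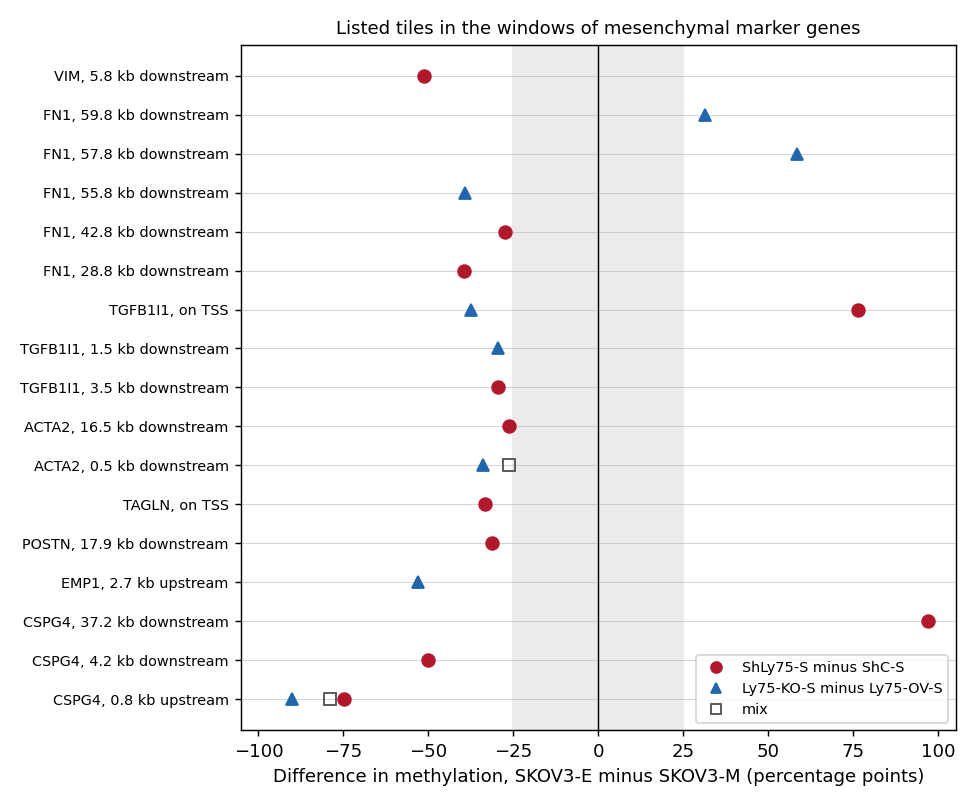
Difference in methylation (x axis, SKOV3-E minus SKOV3-M, percentage points) of each of the 17 listed tiles (rows, with the distance of the nearer tile edge from the TSS), as red circles for ShLy75-S minus ShC-S, blue triangles for Ly75-KO-S minus Ly75-OV-S and open squares for the mix. The grey band marks differences too small to be listed. Most points lie left of 0, the CSPG4 upstream tile has 3 points between −74.7 and −90.0, and the TGFB1I1 tile on the TSS has points on opposite sides.

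Among cytoskeletal genes, VIM encodes vimentin, the intermediate filament of mesenchymal cells (chr10:17270240-17279592, plus strand). Its only listed tile, chr10:17276001-17277000, lay 5761 bp past the TSS over exon 6 of 10 and its flanking introns, and was 51.3 points lower in ShLy75-S than in ShC-S (difference −51.3, q = 2.78e-140). ShC-S was therefore at 51.3% or more there and ShLy75-S at 48.7% or less. The 4 CpGs within reach are all in coding sequence, those in capitals above. Part of the tile is shared with a lncRNA gene that has a TSS within 2 kb of the tile. The tile was listed in neither other table. The tile at the VIM TSS is CpG-rich, with 77 CpGs and 14 within reach, and was listed in no table. Whether an unlisted tile differed by less than the thresholds or lacked reads cannot be told apart.

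ACTA2 encodes the smooth muscle actin of myofibroblasts (chr10:90694831-90751096, minus strand). A tile in intron 1, 530 bp past the TSS of its MANE Select transcript, was 33.9 points lower in Ly75-KO-S than in Ly75-OV-S (−33.9, q = 2.1e-09). The same tile was 26.2 points lower in the mix (−26.2, q = 1.2e-10) and was absent from the ShLy75-S table. In that table, a different ACTA2 tile was listed, chr10:90695001-90696000 over the last of the 9 exons, at −26.3 (q = 1.9e-19). The ACTA2 TSS tile has 11 CpGs but none within reach of MspI reads. Both ACTA2 tiles also overlap the gene record of STAMBPL1, a deubiquitinase gene that overlaps ACTA2, and the tile over the last exon also overlaps the antisense RNA ACTA2-AS1.

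TAGLN encodes transgelin (SM22), an actin-binding protein of smooth muscle (chr11:117070086-117078180, plus strand). The tile that holds its TSS, chr11:117070001-117071000, was 33.3 points lower in ShLy75-S (−33.3, q = 1.8e-12), putting ShC-S at 33.3% or more and ShLy75-S at 66.7% or less. Of its 24 CpGs, 4 are within reach, and these lie in intron 1. The tile was listed only in the ShLy75-S table. Just beyond the window, 1086 bp away within the gene SIDT2, a tile was hypermethylated by 36.8 points in the same table.

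TGFB1I1 encodes Hic-5, a focal adhesion adaptor induced by TGF-β (chr16:31482906-31489281, plus strand). It held a tile listed with opposite signs in the 2 pairs of clones. Such opposition was common: 3958 of the 8345 tiles listed for both pairs (47.4%) had opposite signs. The tile on its TSS, chr16:31483001-31484000, was 76.3 points higher in ShLy75-S than in ShC-S (q = 7.53e-277). The same tile was 37.5 points lower in Ly75-KO-S than in Ly75-OV-S (−37.5, q = 2.92e-113). ShLy75-S was thus at 76.3% or more and ShC-S at 23.7% or less, while Ly75-OV-S was at 37.5% or more and Ly75-KO-S at 62.5% or less. The mix did not list the tile, and the mean of both single differences is 19.4 points, under the listing threshold. A mix value need not equal that mean, as the THY1 values below show, so why the tile is absent there is unknown. It is one of the denser member tiles, with 66 CpGs of which 35 are within reach: 8 upstream of the TSS, 4 in exon 1 and 23 in intron 1, including those shown above. If the order of subtraction in the Ly75-KO-S table were the opposite, both pairs would be hypermethylated there.

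Further along TGFB1I1, both pairs showed lower methylation, each in another tile. The tile chr16:31485001-31486000 over exons 3 to 7 of 11 was at −29.6 in Ly75-KO-S (q = 3.66e-08). That tile lies 254 bp from another TSS of TGFB1I1. It is also within 2 kb of the TSS of a further gene record, which overlaps the TGFB1I1 TSS tile. The tile chr16:31487001-31488000 over exons 8 and 9 was at −29.6 in ShLy75-S (q = 1.42e-07). Within ShLy75-S, then, the TSS tile of this gene was hypermethylated while a tile 3528 bp past the TSS was hypomethylated. The second of these tiles has 64 CpGs, with 8 within reach, all in introns.

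**Figure D2:**
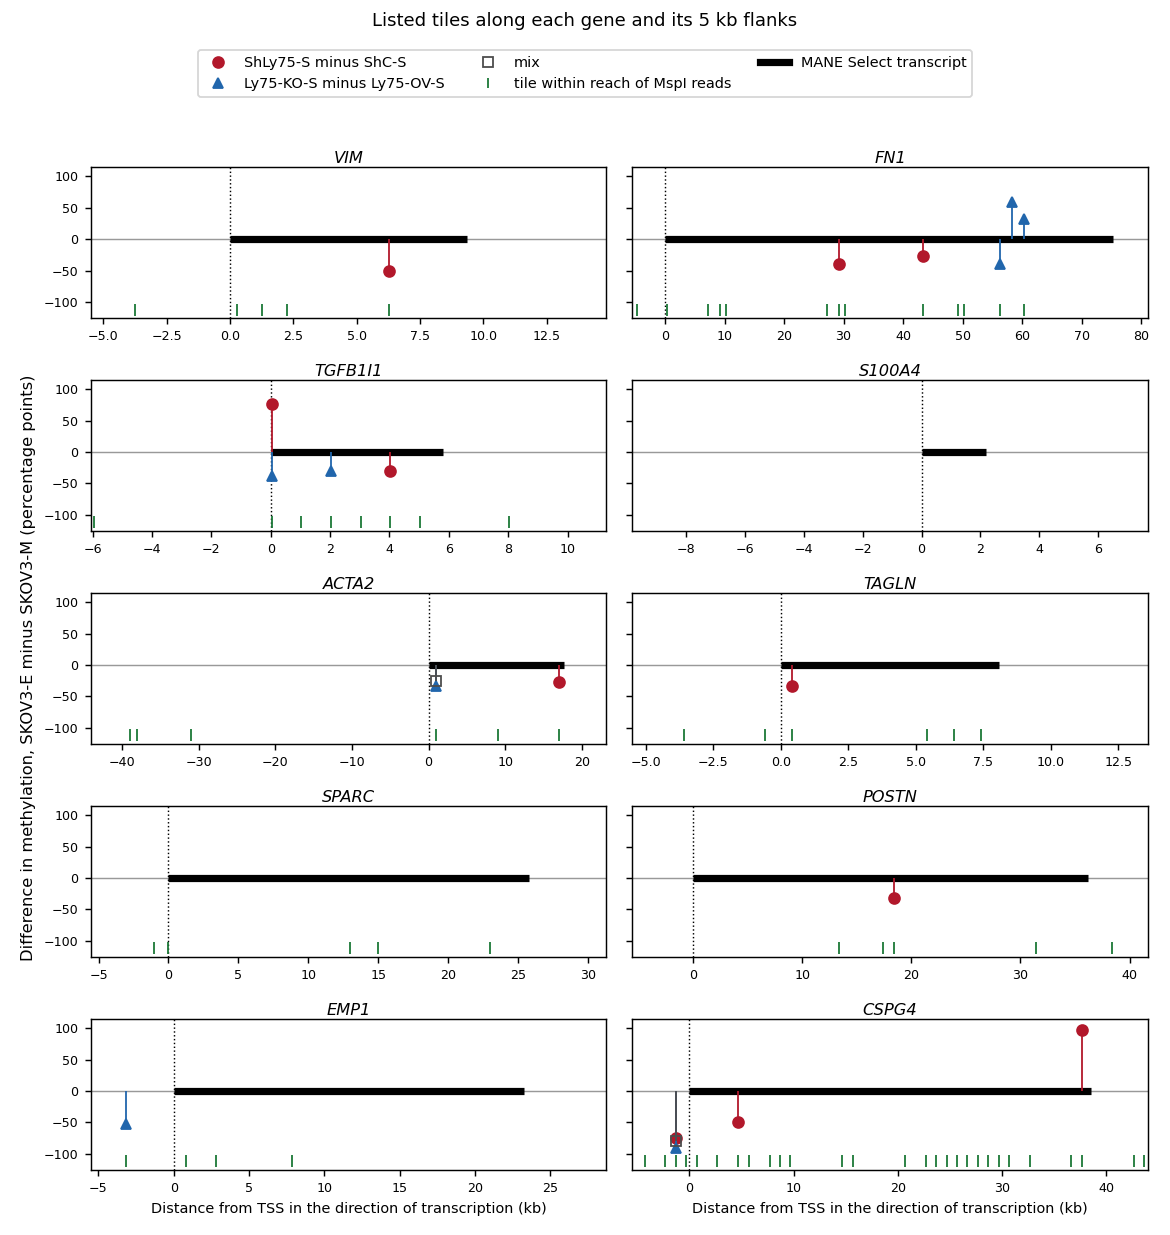
Position of the listed tiles in each gene: the x axis is the distance from the TSS in the direction of transcription (kb) and the y axis the difference in methylation (SKOV3-E minus SKOV3-M, percentage points), with red circles for ShLy75-S, blue triangles for Ly75-KO-S and open squares for the mix. Black bars are the MANE Select transcripts and green marks at the foot the tiles within reach of MspI reads, of which S100A4 has none. Only TGFB1I1 and TAGLN have a listed tile on the TSS.

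Among matrix genes, FN1 encodes fibronectin (chr2:216225163-216300796, minus strand) and had the most tiles, 5. All overlapped coding exons in the body of the gene, and none was near the TSS. The ShLy75-S table listed 2, both hypomethylated. They were chr2:216257001-216258000 over exon 25 of 46 at −27.4 (q = 9.16e-14) and chr2:216271001-216272000 over exons 18 and 19 at −39.7 (q = 2.17e-16). The Ly75-KO-S table listed 3 others further downstream, and these differed in direction within a few kb. The tile over exon 34, chr2:216244001-216245000, was at −39.3 (q = 1.26e-05). The tile over exon 35, chr2:216242001-216243000, was at 58.3 (q = 7.4e-15), and the one over exons 37 and 38, chr2:216240001-216241000, at 31.4 (q = 1.08e-26). The 2 CpGs within reach in the exon 34 tile are intronic, as are 3 of 6 in the tile over exons 37 and 38. In the exon 25 tile 2 of 6 are intronic, and in the tile over exons 18 and 19 all 6 are coding. The exon 35 tile is the only member tile with no CpG within reach under the assumed fragment sizes, also with fragments of 20 to 300 bp. No FN1 tile was listed for both pairs of clones, and none was listed in the mix. The FN1 TSS tile, with 73 CpGs and 31 within reach, was listed in no table.

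POSTN encodes periostin, a matricellular protein of stroma and bone (chr13:38136720-38172981, minus strand). A single tile, chr13:38154001-38155000 over exons 11 and 12 of 23, was lower in ShLy75-S (−31.2, q = 8.79e-18). The 3 CpGs within reach in that tile are intronic, and the POSTN TSS tile has none within reach. SPARC encodes osteonectin, a collagen-binding matrix protein (chr5:151040657-151066536, minus strand), and had no listed tile. Its window of 37 tiles has 5 within reach, among them the TSS tile with 14 reachable CpGs of 24. The tile listed nearest to the SPARC window lay 22657 bp beyond it, at 32.5 in the ShLy75-S table.

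CSPG4 encodes NG2, a chondroitin sulfate proteoglycan of pericytes and glial progenitors (chr15:75966663-76005189, minus strand), and held the only member tile listed in all tables as well as the largest difference. The tile chr15:76006001-76007000, which begins 812 bp upstream of the TSS, was at −74.7 in ShLy75-S (q = 2.94e-22), −90.0 in Ly75-KO-S (q = 6.26e-34) and −78.9 in the mix (q = 1.53e-47), where the mean of both single differences is −82.4. ShC-S was therefore at 74.7% or more and ShLy75-S at 25.3% or less, and Ly75-OV-S at 90.0% or more and Ly75-KO-S at 10.0% or less. If the order of subtraction in the Ly75-KO-S table were the opposite, the levels of Ly75-OV-S and Ly75-KO-S would be exchanged. The pairs would then differ in sign at this tile. The tile is CpG-poor, with 8 CpGs of which the 3 shown above are within reach. The TSS tile next to it, with 42 CpGs and 16 within reach, was listed in no table.

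Within CSPG4 itself the ShLy75-S table listed 2 further tiles of opposite direction. The intron 1 tile chr15:76000001-76001000 was at −50 (q = 1.13e-12). The tile chr15:75967001-75968000 over exon 10, the last, was at 96.9 (q = 1.89e-18), the largest difference among the member tiles, so that ShLy75-S was at 96.9% or more and ShC-S at 3.12% or less. That tile has only 4 CpGs within reach, and the number of reads behind its difference is unknown. The tile lies within 2 kb of the TSS of a lncRNA gene. Upstream, the first tile beyond the window, 812 bp from its edge, was hypermethylated by 90.9 points in ShLy75-S and by 33.8 in the mix. In the knockdown pair, listed tiles of opposite sign therefore lay on the same side of the CSPG4 TSS.

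EMP1 encodes a tetraspan membrane protein of epithelia and other tissues (chr12:13349657-13372875, plus strand). Its only listed tile, chr12:13346001-13347000, ends 2657 bp upstream of the nearest EMP1 TSS and was at −53.1 in Ly75-KO-S (q = 1.52e-07). S100A4 encodes a calcium-binding protein tied to cell motility (chr1:153516089-153522612, minus strand) and had no listed tile. None of the 17 tiles in its window is within reach of MspI reads under the assumed fragment sizes. A tile out of reach can still be listed, as the FN1 exon 35 tile was. Whether the S100A4 window was read is unknown, and its absence from the tables carries no information on its methylation. The nearest listed tile, 2089 bp beyond the window and within S100A6, another member of the S100 gene cluster, was at 100 in the ShLy75-S table.

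The member tiles held fewer CpGs than the listed tiles at large. The median number of CpGs per tile was 13 in the ShLy75-S table, against 19 over all its tiles, and 13.5 against 17 in the Ly75-KO-S table. Of the 17 tiles, 13 overlapped an exon of the MANE Select transcript and 5 were within 2 kb of a TSS of the gene. Of the 10 TSS tiles, 6 had a CpG within reach. These were those of VIM, FN1, TGFB1I1, TAGLN, SPARC and CSPG4, and only those of TGFB1I1 and TAGLN were listed. Over the tiles of the ShLy75-S table the absolute differences ran from 26.3 to 96.9 points with a median of 39.7, against a median of 50 over all its tiles. In the Ly75-KO-S table they ran from 29.6 to 90.0 with a median of 38.4, against 41.9.

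The tiles shared by the pairs of clones were then counted. A listed tile in both single tables was present for 4 genes, FN1, TGFB1I1, ACTA2 and CSPG4, in the ShLy75-S table alone for 3 and in the Ly75-KO-S table alone for 1. Only 2 of the 17 tiles were the same in both, the CSPG4 upstream tile with equal sign and the TGFB1I1 TSS tile with opposite sign. Over both single tables, 8345 of 71180 distinct tiles (11.7%) were shared, 4387 with equal and 3958 with opposite sign, so the sharing among the member tiles was near that of the tables at large. With the opposite order of subtraction in the Ly75-KO-S table, equal and opposite signs would be exchanged in these counts and for both member tiles.

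Other genes of the same program, and epithelial genes, were set beside the 10 genes by their tiles near a TSS. Within 2 kb of a TSS, 3 of the 10 genes had a tile in the ShLy75-S table (2 hypomethylated, 1 hypermethylated), which is near the 30.5% of protein-coding genes. Of 42 other mesenchymal genes, 25 (59.5%) had one: 13 with hypomethylated tiles only, 6 with hypermethylated tiles only and 6 with both. Of 36 epithelial genes 22 (61.1%) had one, with the directions the other way round: 15 hypermethylated only, 4 hypomethylated only and 3 with both. Over all protein-coding genes, 2968 were hypermethylated only, 2455 hypomethylated only and 591 both.

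In the Ly75-KO-S table the directions of the other mesenchymal genes differed from those in the ShLy75-S table. All 3 of the 10 genes with a tile near a TSS were hypomethylated, where 14.3% of protein-coding genes had a tile. Of the other mesenchymal genes 11 (26.2%) had one, 8 hypermethylated only, 1 hypomethylated only and 2 with both. Over all protein-coding genes these counts were 1399, 1242 and 190. Of the epithelial genes 6 (16.7%) had one, 2 hypermethylated only, 3 hypomethylated only and 1 with both. With the opposite order of subtraction these directions would be exchanged. In the mix, 2 of the 10 genes, 17 (40.5%) of the other mesenchymal and 12 (33.3%) of the epithelial genes had a tile, against 15.3% of protein-coding genes. There the directions ran as in the ShLy75-S table: 11 of the other mesenchymal genes were hypomethylated only and 6 hypermethylated only. Of the epithelial genes 9 were hypermethylated only, 2 hypomethylated only and 1 both. Over all protein-coding genes 1596 were hypermethylated only, 1282 hypomethylated only and 144 both. The mix shares its libraries with the other tables, and no test was made on these counts.

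**Figure D3:**
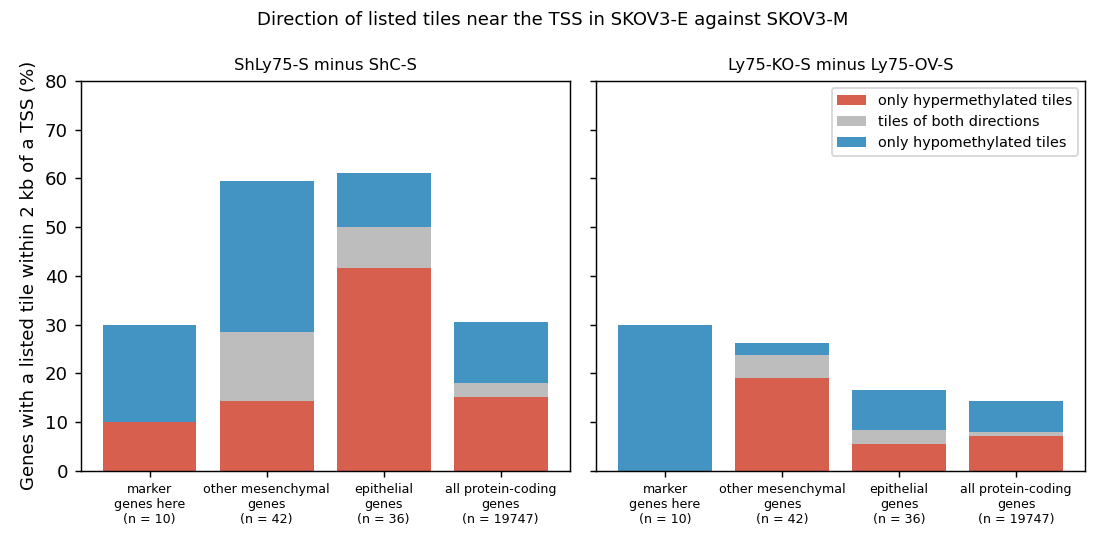
Share of genes with a listed tile within 2 kb of a TSS (y axis, percent), by direction in SKOV3-E against SKOV3-M, for the 10 marker genes, 42 other mesenchymal genes, 36 epithelial genes and all protein-coding genes. The left panel is ShLy75-S minus ShC-S, in which the epithelial bar (15 genes hypermethylated only) and the other mesenchymal bar (13 hypomethylated only) differ in colour. The right panel is Ly75-KO-S minus Ly75-OV-S, in which 8 of the other mesenchymal genes were hypermethylated only.

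Among the other mesenchymal genes, 5 had the same tile listed for both pairs of clones, and in 4 of them the signs were opposite. Over all protein-coding genes, 1040 of 19747 (5.27%) had such a tile near a TSS, and 47.8% of these had one of opposite sign. No test was made of this difference, and the signs depend on the order of subtraction in the Ly75-KO-S table. The integrin subunit gene ITGAV was at −46.5 in ShLy75-S and 56.3 in Ly75-KO-S. THY1, which encodes the fibroblast surface antigen CD90, was at −70.8 and 39.7, with 37.5 in the mix. The collagen gene COL1A1 was at −28.2 and 35.4. CNN1, which encodes the smooth muscle protein calponin, was at −28.0 and 35.4. TWIST1, an EMT transcription factor, was hypermethylated in both, by 33.6 and 60.2 points, and by 44.3 in the mix. Of the epithelial genes, 2 had such a tile: the tight junction gene TJP3 at 25.9 and −31.3, and MARVELD2, which encodes tricellulin, at −28.9 and −25.6, with −33.3 in the mix.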

How the data were processed

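RRBS was run on genomic DNA of 4 SKOV3 clones, with 1 library each. Per the submitters' processing notes, the authors used FastQC, Trim Galore 0.4.1, Bismark 0.16.1 and methylKit on hg19, while the protocol in the labels names Trimmomatic for trimming. The deposited tables give for each tile of 1000 bp the authors' difference in percent methylation, in percentage points, with the p-value and q-value of that difference. These compare reads of single libraries, or in the mix of both libraries of each phenotype, not replicated conditions. PCR copies of a molecule cannot be recognised in them. The smallest coverage accepted is not given in the sources used here, and neither is whether libraries of the mix were pooled. As no column belongs to an individual library, the authors' comparisons are the only data, and no paired or replicated analysis could be made. The study's methods give a laxer adjusted p than the q under 0.01 found for every tile in the tables.

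Genes, exons and TSSs came from GENCODE release 44 on GRCh37. CpGs within reach were computed from the genome for MspI fragments of 40 to 220 bp with reads of 50 bp from each end, sizes that were assumed; these hold 93% of the tiles listed in the ShLy75-S table, 90.1% in the Ly75-KO-S table and 94.1% in the mix. The direction of the ShLy75-S table was settled with 10 genes whose direction the study's text states, each with a tile near the TSS, and 10 of 10 matched. The sequence of 1 further listed tile is not reported here. Counting steps were tested on simulated data. Alternatives varied the flank, the thresholds, the overlap, the gene span and the fragment sizes. All 10 genes are named with every listed tile; from each gene list the 3 with the largest smaller difference in both single tables are named, and COL1A1 and CNN1 were added after their values were seen. The genes and lists were chosen with earlier results of these data known. Python 3.11.15, numpy 2.4.6, pandas 2.3.3, pysam 0.24.0 and matplotlib 3.10.9 were used.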

Additional observations from a re-analysis of the deposited data

Results flagged for a closer look

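The tile on the TSS of TGFB1I1 moved in opposite directions in the pairs of clones: it was 76.3 points higher in ShLy75-S than in ShC-S, and its difference in Ly75-KO-S against Ly75-OV-S was −37.5. With 1 library per clone, the difference between the pairs was not tested, and it is opposite only if the Ly75-KO-S table was subtracted in the order taken here. In that order, 3958 of the 8345 tiles listed for both pairs (47.4%) had opposite signs, so this is not particular to TGFB1I1.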

How the results depend on the processing

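No paired analysis was possible because each clone has 1 library and the tables hold comparisons only. With windows of 10 kb the ShLy75-S table held 19 tiles, 7 of them hypermethylated, and the mix 4, 1 of them hypermethylated. With the gene span alone, tiles in the mix fell to 1 in 1 gene, the genes with a tile in Ly75-KO-S to 3, and tiles shared by both single tables to 1. At 50 points or more, the ShLy75-S table held 5 tiles in 3 genes, the Ly75-KO-S table held 3 tiles in 3 genes (1 hypermethylated), the mix 1 tile in 1 gene, and 1 tile was shared. At a q under 1e-10, the Ly75-KO-S table held 4 tiles in 3 genes, 2 of them hypomethylated and 2 hypermethylated, and the mix 1 in 1. These changes follow from the stricter or wider selection. The opposite order of subtraction, tried after seeing the data, gave 6 hypermethylated tiles in the Ly75-KO-S table. With fragments of 20 to 300 bp, the listed share of reachable tiles in the genome was 11% in the ShLy75-S table, 5.95% in the Ly75-KO-S table and 4.52% in the mix. Counting only tiles with at least 5 reachable CpGs it was 13% and 5.71% in the single tables, and 0% for the members in the mix. The other 75 values under the alternatives, including flanks of 2 kb, an overlap of 500 bp and transcript spans, stayed within 1.5 times the reported count or share. Depth is unknown, so a tile missing from a table is not evidence of equal methylation.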
